A study of Sus scrofa with 8 samples.

Results

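The nuclei described here are glycinergic amacrine nuclei of pig retina, the inhibitory interneurons of the inner retina that release glycine. They were chosen by unique molecular identifiers (UMIs, each counting 1 captured transcript) in single-nucleus RNA sequencing. A nucleus was a member when its barcode held 1000 UMIs or more, 2 or more of SLC6A9 and 1 or more of PAX6 and SLC32A1 together. Members held at most 1 UMI of GAD1 and GAD2, which make GABA, at most 2 of EBF2 and EBF3, and at most 1 of SLC1A3 and RLBP1, which mark Müller glia. TRPM1, GRM6, PTPRC and PDE6C, which mark ON bipolar cells, leukocytes and cones, were also limited to 1 UMI in all. This rule found 4638 members among 388491 barcodes, of which 364259 held 1000 UMIs or more. The levels of these 13 genes chose the members, so they are given as a description only.

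The retinas came from female Yucatan minipigs a few months old. All animals received intravitreal hyaluronidase (Vitrase) in both eyes before dosing and methylprednisolone every week. Both eyes then received AAV2.7m8/CAG-GFP at 5e11 vector genomes per eye, an AAV2 variant that carries a green fluorescent protein (EGFP) transgene under the ubiquitous CAG promoter, or vehicle. Sequencing covered 8 retinas of 6 animals: 2 eyes each from 7221 (AAV) and 7222 (vehicle) at week 2, and 1 left eye (OS) each from 7248 and 7249 (AAV) and from 7250 and 7251 (vehicle) at week 4. Week 2 thus held 1 animal per group and allowed no test of its own. With 2 animals against 2 at week 4, an exact permutation test of a single value cannot give a p below 0.333. Each group carries its own batch name in the labels, so batch and group cannot be told apart.

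Glycinergic amacrine cells mostly have narrow dendritic fields and carry signals vertically between the layers of the inner plexiform layer. SLC6A9 encodes the glycine transporter GlyT1, which takes up the glycine that these cells release, and SLC32A1 encodes the vesicular transporter that loads it. The best known member is the AII cell, which passes rod signals to ON cone bipolar cells through gap junctions and to OFF cone bipolar cells through glycine. Other types include cells that also carry the glutamate transporter VGLUT3 (SLC17A8). In an interferon response, JAK kinases activate STAT proteins, which join IRF9 and bind response elements near antiviral genes.

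Members numbered 541 (left) and 794 (right eye) for 7221, 731 and 733 for 7222, 466 in 7248, 252 in 7249, 499 in 7250 and 622 in 7251. The AAV retina of animal 7249 held the fewest. The median member held between 3370 and 5003 UMIs per retina, and summed member counts ran from 1306511 to 4452959 UMIs. Among members, 466 (10.0%) shared their barcode with a nucleus of another lane, close to the 9.88% of all barcodes, and 6 member barcodes occurred as members in more than 1 lane. Just inside the SLC6A9 limit, 2220 nuclei held 2 UMIs, and 4460 nuclei with 1 UMI that met the other limits lay just outside it. With 2 or more SLC6A9 UMIs, 621 members held 1 GAD1 or GAD2 UMI, and 372 nuclei with 2 lay just outside that limit. At the EBF limit, 354 members held 2 EBF2 or EBF3 UMIs and 298 nuclei with 3 were left to the EBF class.

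As a share of barcodes with 1000 UMIs or more, members made up 0.937% and 0.519% in the AAV retinas at week 4 and 1.11% and 1.47% in the vehicle retinas. Both AAV retinas lay below both vehicle retinas, with means of 0.728% ± 0.296 and 1.29% ± 0.259 (SD, n = 2 animals each). The difference of -0.564 percentage points had a two-sided exact permutation p of 0.333, the smallest this design allows. At week 2 the shares were 1.43% and 1.90% in the AAV eyes and 1.42% and 1.53% in the vehicle eyes, which overlapped in range. Rod-marked nuclei took 49.4% and 56.8% of barcodes in the AAV retinas at week 4 and 33.4% and 24.1% in the vehicle retinas, and their part in the share of members was not tested. Among members of the glycinergic, GABAergic and EBF gates together, glycinergic nuclei made up 15.4% ± 3.12 in AAV and 19.9% ± 0.585 in vehicle retinas at week 4. In counts of captured nuclei, fewer cells of a type and fewer nuclei recovered from it cannot be told apart.

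Over all members, several markers outside the gate set members apart from GABAergic nuclei, but not every sub-cluster carried the amacrine markers, as given below. In CPM, the UMIs of a gene summed over nuclei and scaled to the same total in each library, SLC6A9 stood at 632 in members and 11.6 in GABAergic amacrine nuclei, a gap the gate itself set. TCF4, a bHLH transcription factor that was no part of the gate, stood at 1442 CPM against 117 in GABAergic nuclei. NFIA, a nuclear factor that marks AII cells, stood at 2147 CPM against 163, but not in every sub-cluster described below. It stood at 6158 CPM in the AII-like sub-cluster, but at 17.0 in the largest sub-cluster and 10.0 in sub-cluster 3, below the GABAergic level. NFIX stood at 129 CPM against 4.63 and ST18, a zinc-finger factor, at 230 against 9.55. MEIS2, a homeobox gene of many GABAergic amacrine cells, went the other way, at 47.7 CPM in members and 1292 in GABAergic nuclei. SLC18A3 and POU4F1, which mark starburst and ganglion cells, had no UMI in members, but other markers of both types did. The starburst markers summed to 13.15 to 28.3 CPM per retina in members and 8.99 to 22.0 CPM over whole retinas. The ganglion markers summed to 21.4 to 52.25 CPM in members and 53.4 to 106.5 CPM over whole retinas. Glycine transporter GlyT2 (SLC6A5) was at 0.17 CPM and the bHLH factor PTF1A at 0. Rod transcripts were present, with the 9 rod markers summing to 599 to 1516 CPM per retina, against 4540 to 6995 CPM over whole retinas.

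Clustering the members by themselves gave 19 sub-clusters. Leading genes carry no test, since they come from the nuclei that were clustered, though some of them, such as NETO2, EBF3, HDC and COL9A1, were kept out of the clustering itself. The largest, with 1354 nuclei (29.2%), led with SEMA3E, SYTL5 and NETO2, a semaphorin, a synaptotagmin-like protein and a subunit of kainate receptors. The second, with 946 nuclei (20.4%), led with NFIA, SYNDIG1 and PDLIM1 and is called AII-like. In it the AII markers stood at 6158 CPM for NFIA, 2270 for DAB1, 1819 for CALB2, 371 for PROX1 and 23.6 for GJD2, the connexin 36 gene. GJD2 was found in 16.1% of its nuclei. Not each marker was particular to it, with DAB1 at 2403 CPM in sub-cluster 3 and 2712 in sub-cluster 9. PROX1 stood at 353 CPM in sub-cluster 18 and NFIA at 3901 in sub-cluster 12. AII-like nuclei were deep, at a median UMI count of 7282 where the largest sub-cluster had 3364. Sub-cluster 3 (404 nuclei, 8.71%) led with SYNDIG1L and EBF3. Sub-cluster 4 (378 nuclei, 8.15%) led with NXPH1, SLC17A8 and BNC2 and had SLC17A8 at 832 CPM, but since fewer than 3 VGLUT3 markers were detected it is called only by its number. HDC, the enzyme that makes histamine, was among its leading genes at 531 CPM. Sub-cluster 5 (224 nuclei, 4.83%) led with HPSE2, OLFM3 and VIT. The amacrine factors TFAP2A and TFAP2B were found in 75.5% and 86.9% of AII-like nuclei, but in only 1.4% and 1.77% of the largest sub-cluster and 1.73% and 1.24% of sub-cluster 3. TFAP2A was also in 0% to 3.18% and TFAP2B in 0% to 3.92% of nuclei of sub-clusters 6, 9, 10, 13 and 16. For these 7 sub-clusters the amacrine label rests on the gate genes. EBF3 was found in 75.9% to 81.4% of nuclei of sub-cluster 3 and of sub-clusters 10, 13, 16 and 18, within the limit the gate sets. Sub-cluster 14 (77 nuclei) led with COL9A1, CPAMD8 and RPE65, the last a gene of the pigment epithelium, so its leading genes go against the label. In 7 sub-clusters, this one among them, the rod arrestin gene SAG reached 1000 CPM or more. In 3 of them, sub-clusters 6, 10 and 11, the photoreceptor genes ABCA4 and PDE6B were among the first 10 leading genes, so their leading genes go against the label as well. Another of them, sub-cluster 7 (181 nuclei), led with GRIK1, used here as a bipolar marker, at 1769 CPM. MEIS2, at 419 CPM, was also among its leading genes, and GAD2 was in 33.15% of its nuclei, so these genes go against the label too. The SAG-high sub-clusters together held 750 nuclei (16.2%), kept among the members. Without them 117 genes were higher and 68 lower at week 4, against 159 and 78 with them. No doublet caller was run, and the gate sets no limit on rod transcripts.

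The AII-like share of members was 21.4% and 24.3% in the AAV eyes and 18.1% and 16.2% in the vehicle eyes at week 2. At week 4 it was 21.9% and 27.4% in AAV and 18.04% and 20.1% in vehicle retinas. In each week both AAV retinas lay above both vehicle retinas. Sub-cluster 3 went the other way, at 5.55% and 5.04% against 10.7% and 13.2% at week 2, and 4.72% and 7.14% against 8.62% and 12.2% at week 4. Sub-cluster 4 was at 4.94% and 2.78% in AAV and 7.42% and 6.43% in vehicle retinas at week 4, but overlapped at week 2. The largest sub-cluster overlapped between groups at week 2 and week 4. These shares were not tested and are given as values. The gate counts raw UMIs, and at week 4 the median member held 4292.5 and 4682.5 UMIs in AAV and 3559 and 3369.5 in vehicle retinas. SLC6A9 stood at 448 CPM in AII-like nuclei and 719 in the other members. Sub-cluster 3 carries EBF3 and is cut by the EBF limit. Beyond that limit the EBF gate held 178 and 105 nuclei in AAV and 129 and 160 in vehicle retinas at week 4. The part of depth and of these limits in the shares was not tested.

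**Figure D1:**
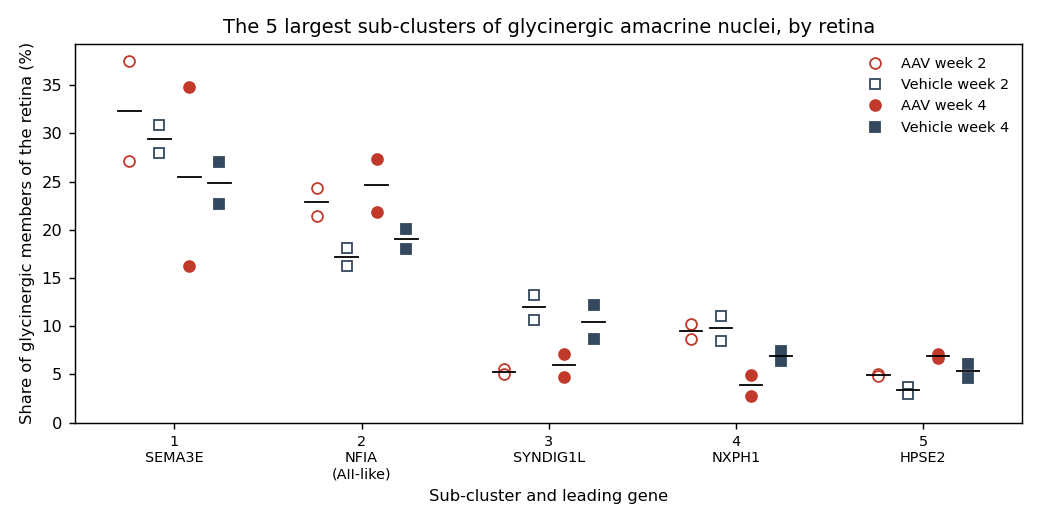
Share of each retina's members (%, vertical axis) in the 5 largest sub-clusters (horizontal axis, with the leading gene), 1 symbol per retina and a line at each group's mean. The AII-like sub-cluster 2 lay between 21.4% and 27.4% in the 4 AAV retinas and between 16.2% and 20.1% in the 4 vehicle retinas, and sub-cluster 3 was lower in AAV retinas at both weeks.

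At week 4, interferon-stimulated genes were higher in members from AAV retinas, and most other gene lists held few called genes. With 2 animals against 2, few calls are not read as no change. Sums per retina were compared with edgeR's quasi-likelihood test and Benjamini-Hochberg adjustment over 12843 genes. 159 genes (1.24%) passed at an adjusted p of 0.05 as higher and 78 (0.607%) as lower, and the median log2 fold change of all genes was 0.01. All called genes had groups that did not overlap, as did 42.2% of all genes tested. The number of higher genes was 240 without animal 7248, 305 without 7249 and 89 without vehicle animal 7250, and that of lower genes 184, 178 and 35, with 38 without vehicle animal 7251. On the list of interferon-stimulated genes, 38 of 43 tested genes rose and none fell, with a median log2 fold change of 4.05. All 43 had positive values. The 5 that did not pass were IFIT2 (log2 1.18), IFIT5 (1.57), TRIM26 (0.73), GBP2 (0.63) and IRF7 (1.47). The count was 28 to 43 under every alternative run. Summed over the list, members held 2574 and 3189 CPM in the AAV retinas and 341 and 335 CPM in the vehicle retinas. All barcodes with 1000 UMIs or more held 3497 and 3937 CPM in the AAV and 383 and 398 CPM in the vehicle retinas. The part of transcripts from other cells in the member values was not tested.

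The most abundant gene of this list was EIF2AK2, the kinase PKR that binds double-stranded RNA and halts translation. It stood at 312 and 380 CPM in the AAV retinas and 57.5 and 65.4 CPM in the vehicle retinas, without overlap. Its log2 fold change was 2.52 ± 0.15 (SE), with an adjusted p of 9.5e-09 from edgeR. IFI44L, an antiviral protein with no fully known mechanism, stood at 141 and 243 CPM in the AAV retinas. The vehicle retinas held a single UMI of it, and the ratio of summed counts was 816 with an exact Poisson interval of 146 to 32290, which covers counting error only. IFI6, a membrane protein that limits viral replication sites, stood at 116 and 236 CPM against 0.487 and 1.19 (log2 7.56 ± 0.73, edgeR adjusted p 0.017). Its call was lost when either vehicle animal was left out.

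IFIH1, DDX60 and DHX58, all tied to RNA sensing, rose from levels near 0 in vehicle members. IFIH1, which encodes the sensor MDA5, stood at 60.8 and 57.4 CPM in the AAV retinas and had no UMI in the vehicle retinas. Set against a floor of 3 counts over the vehicle group, it was at least 90.8-fold higher. DDX60, a helicase that aids RNA sensing, stood at 49.6 and 67.4 CPM against 0 and 0.396 (log2 7.72 ± 0.51, edgeR adjusted p 4.8e-08). DHX58, which encodes LGP2, stood at 20.7 and 16.8 CPM against 0.487 and 1.19 (log2 4.38 ± 0.53, edgeR adjusted p 7.7e-05). HERC5, MX2, IFI44, ISG15, RSAD2 and NMI also rose from low levels. In contrast, ADAR, which edits double-stranded RNA, stood at a mean of 41.7 CPM in vehicle and 80.5 in AAV members. HERC5, the ligase that attaches ISG15 to proteins, stood at 79.3 and 85.0 CPM against 0 and 0.793 (log2 7.39 ± 0.43, edgeR adjusted p 8.8e-09). MX2, a GTPase that binds viral capsids, stood at 42.8 and 35.97 CPM against 0.487 and 0.396. IFI44, ISG15 itself and RSAD2, which encodes viperin, had no UMI in the vehicle retinas. They were at least 97.3-, 32.4- and 21.2-fold higher against the same floor. NMI, a partner of STAT proteins, rose from 0 and 0.396 to 11.7 and 28.3 CPM.

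**Figure D2:**
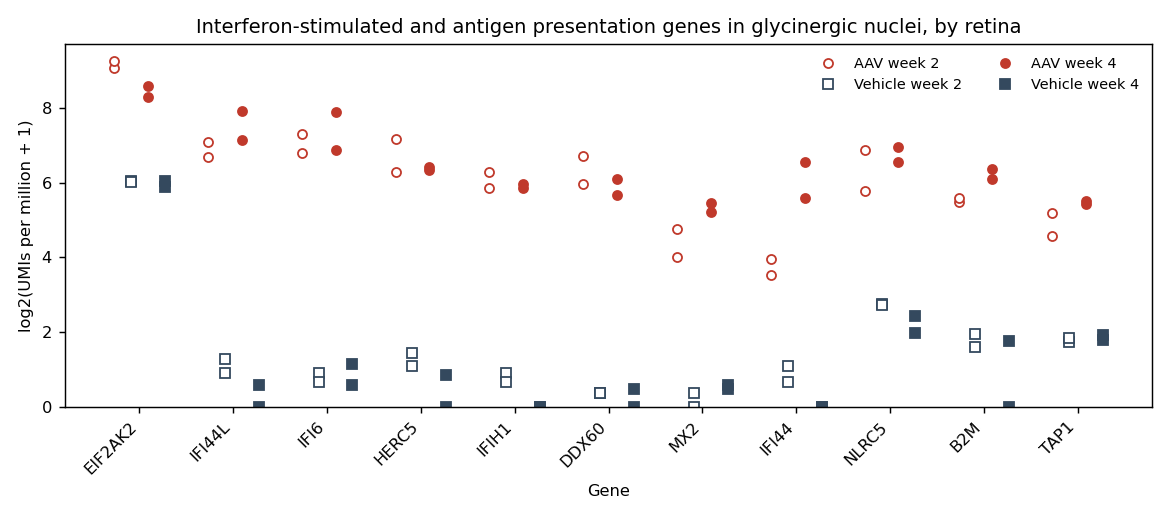
Levels of 11 interferon-stimulated and antigen presentation genes in members, as log2 of CPM plus 1 (vertical axis), 1 symbol per retina. For each gene the 4 AAV retinas lay above the 4 vehicle retinas, with EIF2AK2 at 312 to 608 CPM in AAV and 57.5 to 65.4 CPM in vehicle retinas.

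The windows upstream of 4 of these genes are printed to show the letters of an interferon-response element next to the measured rise. The element searched was GAAANNGAAA on both strands, in the 250 bases before each gene start in RefSeq's annotation of Sscrofa11.1. It was found before 588 of 19531 protein-coding genes (3.01%). Of the 38 called interferon-stimulated genes, 37 had a window and 12 of these (32.4%) held it. Over the whole list it was in 16 of 51 windows (31.4%). Each sequence reads 5′ to 3′ toward the gene, with matches in capitals. IFI44L lies on the minus strand, with the window at chr6:134679213-134679462 and a match that begins 27 bases before the gene start. IFI6 lies on the minus strand, with the window at chr6:84858073-84858322 and a match from base 12. IFIH1 lies on the minus strand, with the window at chr15:68985146-68985395 and 3 matches, from bases 161, 155 and 23. ISG15 lies on the plus strand, with the window at chr6:63362951-63363200 and 3 matches, from bases 134, 128 and 108. Where matches overlap the capitals run on.
IFI44L: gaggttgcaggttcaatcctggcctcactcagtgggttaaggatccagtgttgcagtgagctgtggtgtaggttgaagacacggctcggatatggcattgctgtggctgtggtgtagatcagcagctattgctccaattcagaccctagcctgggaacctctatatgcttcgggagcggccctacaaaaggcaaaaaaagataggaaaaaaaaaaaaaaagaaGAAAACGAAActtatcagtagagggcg
IFI6: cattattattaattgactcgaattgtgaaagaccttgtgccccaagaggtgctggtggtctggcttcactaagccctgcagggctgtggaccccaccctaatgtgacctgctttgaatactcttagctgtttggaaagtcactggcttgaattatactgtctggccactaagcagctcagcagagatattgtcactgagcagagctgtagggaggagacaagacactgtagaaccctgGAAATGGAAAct
IFIH1: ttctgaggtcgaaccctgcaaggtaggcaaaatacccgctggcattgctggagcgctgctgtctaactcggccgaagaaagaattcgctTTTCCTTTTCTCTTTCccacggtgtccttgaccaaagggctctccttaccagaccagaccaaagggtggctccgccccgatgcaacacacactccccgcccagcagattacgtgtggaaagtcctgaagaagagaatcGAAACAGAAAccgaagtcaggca
ISG15: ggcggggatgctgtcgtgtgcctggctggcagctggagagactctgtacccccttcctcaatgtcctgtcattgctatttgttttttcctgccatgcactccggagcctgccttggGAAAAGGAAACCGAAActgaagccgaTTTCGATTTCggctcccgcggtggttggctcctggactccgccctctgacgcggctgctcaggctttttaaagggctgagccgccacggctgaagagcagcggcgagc
A match is only a match of letters in this window, and EIF2AK2, which rose as well, held none.

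Of 19 tested interferon receptor, kinase and factor genes, 7 rose and none fell, with a median log2 fold change of 0.68. STAT2 stood at 106 and 99.5 CPM against 29.2 and 26.6 (log2 1.92 ± 0.18, edgeR adjusted p 3.7e-06). IRF9 stood at 54.1 and 55.1 CPM against 1.95 and 4.76 (log2 3.98 ± 0.32, edgeR adjusted p 5.6e-07). STAT3, which carries signals of the interleukin 6 family, stood at 132 and 90.3 CPM against 54.1 and 44.8 (log2 1.23 ± 0.19, edgeR adjusted p 0.0014). IRF1 and IRF2 also rose, with log2 fold changes of 2.66 and 1.07. The receptor genes IFNAR1 and IFNAR2 had values of 0.68 and 0.67 on the log2 scale and did not pass (edgeR adjusted p 0.14 and 0.11). JAK1, JAK2 and TYK2 lay between -0.26 and 0.01 and did not pass.

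MHC class I presentation rose in 7 of 14 tested genes, with a median log2 fold change of 2.23. NLRC5, the transactivator of class I genes, stood at 122 and 93.4 CPM against 2.92 and 4.36 (log2 4.88 ± 0.28, edgeR adjusted p 8.8e-09). B2M, the light chain of class I molecules, stood at 67.6 and 81.1 CPM against 0 and 2.38 (log2 5.79 ± 0.45, edgeR adjusted p 3.4e-06). TAP1, TAP2, TAPBPL and ERAP1, which carry, edit and trim peptides, passed with log2 fold changes of 4.04, 4.23, 2.73 and 3.29. PSME1, a proteasome activator, stood at 46.4 and 33.7 CPM against 11.7 and 8.32 (log2 2.07 ± 0.28). CALR, PDIA3 and CANX, general chaperones of the endoplasmic reticulum, had values between 0.04 and 0.26 on the log2 scale and did not pass.

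Of 9 tested genes of glycine transmission, which leave out the gate genes SLC6A9 and SLC32A1, none passed, with a median log2 fold change of -0.12. SLC6A9, used by the gate, stood at 589 and 521 CPM in AAV and 702 and 734 CPM in vehicle retinas. SLC32A1, also used by the gate, stood at 9.01 and 7.65 CPM in AAV and 13.6 and 21.8 CPM in vehicle retinas, on 10 to 55 UMIs per retina. The glycine receptor subunit GLRA3 stood at 216 and 266 CPM against 253 and 243, with overlap. GLRB stood at 163 and 159 CPM against 210 and 163, and the scaffold gephyrin (GPHN) at 1226 and 1158 against 1239 and 1154, both with overlap. SHMT1, which makes glycine from serine, had a log2 value of -1.04 that did not pass (edgeR adjusted p 0.51). GLDC, an enzyme that breaks glycine down, stood at 61.7 and 57.4 CPM against 42.9 and 49.9, and its log2 value of 0.39 did not pass (edgeR adjusted p 0.44). Of 25 tested amacrine transcription factors, none passed, with a median of 0.07. NFIA stood at 2144 and 2222 CPM against 1717 and 2316, and PROX1 at 224 and 204 against 167 and 181. TFAP2B, an AP-2 factor of amacrine cells, stood at 247 and 265 CPM against 206 and 189 and had a log2 value of 0.40 that did not pass (edgeR adjusted p 0.14). None of 13 gap junction and AII circuit genes passed, with a median of -0.02. GJD2 stood at 10.8 and 15.3 CPM against 7.79 and 7.13, a log2 value of 0.80 with an edgeR adjusted p of 0.44.

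Of 35 tested receptors for glutamate and GABA, 3 fell and 1 rose, with a median of -0.18. GABRB2, which encodes a subunit of the GABA-A receptor, stood at 323 and 286 CPM against 563 and 517 (log2 -0.79 ± 0.12, edgeR adjusted p 0.00054). GABRB2 was lower in AII-like nuclei than in other members, at a log2 difference of -5.89, and the AII-like share was higher in both AAV retinas. Without the AII-like and SAG-high sub-clusters GABRB2 fell by 0.59 on the log2 scale (edgeR adjusted p 0.0205). The shares of other sub-clusters also differed between the groups, and the part of sub-cluster shares in this fall was not tested. GRM7, a presynaptic metabotropic glutamate receptor, stood at 167 and 151 CPM against 254 and 255 (log2 -0.65 ± 0.12, edgeR adjusted p 0.007). GRM7 lost its call without 7250 or 7251. None of 27 genes of vesicle release and synaptic adhesion passed, with a median of 0.06. Of 15 amacrine neuropeptide genes only NPY had enough counts to be tested, with a log2 value of 0.13. TRH, GAL, TAC1 and ADCYAP1 had no UMI in members.

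Genes of stress and death gave few calls. None of 16 p53 targets, 11 genes of TNF and NF-kB signalling and 10 neuronal injury genes passed, with medians of 0.13, 0.41 and -0.05. Among 17 cell death effectors only ZBP1 passed, a sensor of Z-form nucleic acid that interferon induces. It stood at 13.5 and 26.0 CPM against 0.487 and 0 (log2 6.11 ± 0.76, edgeR adjusted p 0.00013). Of 5 tested complement genes, SERPING1, which encodes the C1 inhibitor, rose (log2 1.23 ± 0.21, edgeR adjusted p 0.0028), a call lost without animal 7250. Of 21 genes of energy metabolism, 2 fell, with a median of -0.24. ALDOC, the aldolase of neural tissue, stood at 11.7 and 11.5 CPM against 45.8 and 40.0 (log2 -1.85 ± 0.26, edgeR adjusted p 0.00033). GAPDH stood at 42.8 and 35.2 CPM against 77.9 and 89.6 (log2 -1.06 ± 0.19, edgeR adjusted p 0.0037), a call lost without animal 7251. Over whole retinas, ALDOC had 18.2 CPM in AAV and 55.8 in vehicle retinas and GAPDH 44.9 and 98.3.

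Some of the largest rises and falls were of genes that mark other cells. IGHM, the immunoglobulin mu chain, stood at 12.2 and 24.5 CPM in members of AAV retinas and had no UMI in vehicle members, at least 25.5-fold higher against the floor. CD163, a scavenger receptor of macrophages, stood at 6.31 and 10.7 CPM and was at least 12.1-fold higher, a call lost without animal 7250. Over whole AAV retinas IGHM had 32.8 CPM and CD163 51.1, against 0.0496 and 0.0953 in vehicle retinas. The 5 B or plasma cell markers summed to 45.9 to 64.3 CPM in members of AAV and 19.0 to 25.8 in members of vehicle retinas, the 5 T cell markers to 17.1 to 21.4 against 6.74 to 10.7, and the 6 microglia markers to 21.4 to 22.1 against 9.91 to 16.1. All of these markers had UMIs in members of AAV retinas, and 2 of each list were at 0 in vehicle members. RGR, an opsin of Müller glia and pigment epithelium, had no UMI in AAV members and stood at 12.2 and 14.7 CPM in vehicle members, at least 15.9-fold lower. TF, which encodes transferrin, stood at 0.450 and 2.30 CPM against 21.4 and 21.8 (log2 -4.14 ± 0.53, edgeR adjusted p 0.00016). Over whole retinas RGR stood at 4.34 CPM in AAV and 80.9 in vehicle retinas, and TF at 25.9 and 180. The part of transcripts from other cells in these values was not tested.

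NPR1 and GRXCR2 fell on few counts. NPR1, a receptor for natriuretic peptides, held 1 UMI in the AAV retinas, with a ratio of 0.0419 (counting interval 0.00103 to 0.251). GRXCR2, known from hair cells, also held 1, with a ratio of 0.0433 (0.00106 to 0.260). KDR, the receptor of vascular endothelial growth factor, stood at 4.50 and 0.765 CPM against 13.6 and 15.9 (log2 -2.23 ± 0.50, edgeR adjusted p 0.023). EBI3, a cytokine subunit, stood at 4.05 and 3.06 CPM against 22.4 and 17.0 (log2 -2.37 ± 0.41, edgeR adjusted p 0.0028). ASB10, PRR35 and GPRC5B had log2 fold changes of -2.96, -2.18 and -1.69. The calls of NPR1, GRXCR2, KDR, ASB10, PRR35 and GPRC5B were each lost without 7250 and without 7251, and that of EBI3 without 7250. Of 12 tested genes of the mitochondrial genome 4 fell, among them ND5 at 36.9 and 19.1 CPM against 80.9 and 102 (log2 -1.61 ± 0.25, edgeR adjusted p 0.0023). COX3 stood at 156 and 89.6 CPM against 346 and 425 and lost its call without 7251. Mitochondrial transcripts made up 0.102% and 0.0592% of UMIs in members of AAV and 0.188% and 0.255% in members of vehicle retinas.

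The response was present in the AII-like sub-cluster and in the others. In AII-like nuclei alone, 7979 genes were tested and 85 (1.07%) rose, among them 29 of 34 interferon-stimulated genes with a median log2 fold change of 4.49. In the other sub-clusters without those high in SAG, 10304 were tested and 89 (0.864%) rose, with 28 of 34 listed genes and a median of 3.91. The list summed to 2605 and 3229 CPM in AII-like nuclei of AAV and 298 and 341 CPM of vehicle retinas. In the other sub-clusters it summed to 2180 and 2861 against 340 and 336. A direct test of the difference between these responses, within the same retinas, passed for 4 of 9842 genes (0.0406%) and for no listed interferon-stimulated gene. The 4 were CACNA2D3 (log2 difference, AII-like minus other, -2.24 ± 0.30), GALNTL6 (-0.96 ± 0.17), PROM1 (1.79 ± 0.25) and TRPC7 (1.29 ± 0.24).

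GABAergic amacrine nuclei of the same retinas were tested in the same way. With 18525 nuclei over the series, 19068 genes were tested, of which 478 (2.51%) rose and 197 (1.03%) fell. On the interferon-stimulated list 44 of 49 rose, with a median log2 fold change of 4.19. Of 18 TNF and NF-kB genes 4 rose in GABAergic nuclei, where none of 11 passed in glycinergic nuclei. Of 31 amacrine transcription factors 4 rose and 1 fell there, where none of 25 passed in glycinergic nuclei. More genes were tested in the deeper GABAergic sums, and these differences between lists were not tested. The list summed to 2680 and 3940 CPM in GABAergic nuclei of AAV retinas and 343 and 349 CPM of vehicle retinas. In nuclei of the EBF gate 24 of 8165 genes (0.294%) rose and 6 (0.0735%) fell. The list summed there to 1282 and 1932 CPM against 309 and 306, and their difference from glycinergic nuclei was not tested. Tested within retinas, the glycinergic and GABAergic differences themselves differed for 47 of 18397 genes (0.255%), 19 of them more positive in glycinergic nuclei. None of 49 interferon-stimulated genes was among them, and their median difference was 0.04 on the log2 scale. The number of calls was 248 without animal 7248, 217 without 7249 and 2 with DESeq2.

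GALNT18, a glycosyltransferase, had the smallest p among genes with a symbol that differed between the classes. It fell in glycinergic nuclei (log2 -0.61 ± 0.13) and rose in GABAergic nuclei (log2 0.56). SLIT2, an axon guidance ligand, stood at 136 and 96.4 CPM in glycinergic nuclei of AAV retinas and 55.5 and 61.4 of vehicle retinas. In GABAergic nuclei it stood at 1205 and 914 against 1116 and 1043, with overlap. The log2 difference of the responses was 1.04 ± 0.13 (edgeR adjusted p 0.001). TENM3, a teneurin of synaptic matching, differed by 0.87 ± 0.10, at 538 and 343 against 347 and 321 CPM in glycinergic nuclei and 1179 and 713 against 1382 and 1195 in GABAergic nuclei. DRD2, the D2 dopamine receptor, stood at 54.5 and 78.1 CPM against 73.6 and 81.3 in glycinergic nuclei and 14.8 and 22.1 against 8.01 and 7.66 in GABAergic nuclei. Its difference was -1.43 ± 0.20. GRIA1, an AMPA receptor subunit, stood at 216 and 232 CPM against 286 and 285 in glycinergic nuclei and 120 and 145 against 88.8 and 82.8 in GABAergic nuclei, a difference of -0.94 ± 0.12. SLC4A5, a bicarbonate transporter, stood at 6.76 and 11.5 CPM against 22.9 and 27.4 in glycinergic nuclei and 78.7 and 119 against 61.0 and 65.7 in GABAergic nuclei. GNA14, a G protein subunit, differed by -1.26 ± 0.18. It stood at 799 CPM in sub-cluster 3 and 84.5 in the other members, and the share of this sub-cluster was lower in both AAV retinas. Others of these genes also differed between sub-clusters, with a log2 ratio of AII-like to other members of -5.15 for GRIA1, -4.16 for GALNT18, -4.17 for TENM3, -3.36 for SLIT2 and 2.70 for DRD2, and the AII-like share was higher in both AAV retinas. The part of these shares in the results was not tested. All but GALNT18 and SLC4A5 of the 10 genes with the smallest p lost their calls with DESeq2.

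At week 2, where the values compare 1 animal with 1 and carry counting error only, the same list stood high. Of 16499 genes with 20 or more UMIs, 566 (3.43%) were more than 2-fold higher and 316 (1.92%) more than 2-fold lower in the sum of the AAV eyes, with no overlap between the eyes of the groups. The 2 eyes of an animal are not replicates of a group. On the interferon-stimulated list this held for 44 of 45 genes, all higher, with a median log2 ratio of 4.45, against 0.05 for all genes. The list summed to 3208 and 3939 CPM in the AAV eyes and 353 and 334 in the vehicle eyes. EIF2AK2 stood at 538 and 608 CPM against 65.3 and 63.6, a ratio of 9.03 (8.20 to 9.98). IFI44L stood at 134 and 102 CPM against 0.859 and 1.41, and DDX60 at 61.9 and 104 against 0.286 and 0.283. LGALS3BP, a secreted glycoprotein, stood at 50.7 and 64.7 CPM against 0.286 and 0.848. PARP9, an interferon-induced member of the PARP family, stood at 18.1 and 24.03 CPM against 0 and 0.283. Of 14 class I presentation genes 10 were counted as higher, with a median of 2.42. STAT3, which rose at week 4, had a ratio of 1.19 (1.02 to 1.39) at week 2. Of 19 interferon receptors, kinases and factors 8 were counted as higher, as were 2 of 7 complement genes, 3 of 19 p53 targets and 3 of 20 cell death effectors. Of 15 TNF and NF-kB genes 1 was higher and 1 lower, and of 37 receptors for glutamate and GABA 1 was higher and 1 lower. For neuronal injury 1 of 11 genes, and for vesicle release and synaptic adhesion 1 of 28, were lower. None of 29 transcription factors and none of 9 glycine transmission genes was counted in either direction.

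The largest falls at week 2 were of sparse genes. PAX2, an astrocyte factor, stood at 0.769 and 0 CPM in the AAV eyes and 6.59 and 1.70 in the vehicle eyes. ATP13A4, a transporter ATPase, stood at 2.31 and 1.57 CPM against 9.74 and 12.2, a ratio of 0.168 (0.0857 to 0.305). It led sub-cluster 3, at 65.2 CPM against 1.30 in the other members, and the share of that sub-cluster was lower in the AAV eyes. NAALAD2, a peptidase, stood at 1.92 and 0.898 CPM against 14.0 and 20.1. Its levels at week 4, 16.7 and 24.5 against 0 and 40.4 CPM, overlapped. ABCC9, a subunit of potassium channels, stood at 1.15 and 2.70 CPM against 27.5 and 19.2 at week 2 and at 0.901 and 44.4 against 17.1 and 30.9 at week 4.

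**Figure D3:**
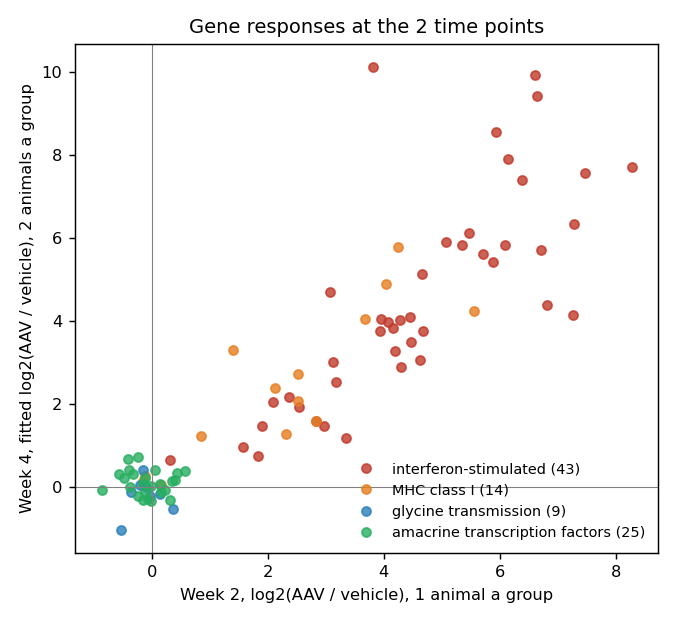
Log2 AAV to vehicle ratio of genes of 4 lists at week 2 (horizontal axis, 1 animal a group) and at week 4 (vertical axis, fitted, 2 animals a group), 1 point per gene. The 43 interferon-stimulated genes lay above 0 at week 4, while the glycine transmission and amacrine transcription factor genes lay between -1.04 and 0.72 there.

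The change between weeks was tested with edgeR over all 6 animals, where the spread comes from the week 4 animals alone and the lone animals of week 2 are assumed to vary like them. A difference particular to animal 7221 or 7222 cannot be told apart from a change between weeks. It passed for 63 of 14624 genes (0.431%), 25 of them with a more positive difference at week 4. None of 46 interferon-stimulated genes passed, with a median of -0.11. The number was 299 without animal 7248, 243 without 7249, 14 without 7251 and 3 with DESeq2. TOPAZ1 stood at 107 CPM in AAV and 228 in vehicle members at week 2 and at 190 and 169 against 135 and 125 at week 4, a log2 difference of 1.64 ± 0.22 (edgeR adjusted p 0.00045). STAC2, an adaptor of calcium channels, stood at 398 against 256 CPM at week 2 and at 247 and 276 against 442 and 427 at week 4, a difference of -1.32 ± 0.20. SLIT2 stood at 42.0 against 62.7 CPM at week 2, below its vehicle level, and above it at week 4, a difference of 1.72 ± 0.29. RGR and TF, described above with their whole-retina levels, had differences of -8.26 ± 1.42 and -4.10 ± 0.73, and their week 2 ratios were 0.814 and 0.980. Of these, SLIT2, RGR and TF lost their calls without 7251.

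No EGFP UMI was found in vehicle members, at 0 of 731, 733, 499 and 622 nuclei, which, at 3 counts of the total, allows a share of up to 0.409% to 0.601% in each retina. At week 2, 64 of 541 members (11.8%, exact binomial 95% interval 9.23 to 14.9%) and 167 of 794 (21.0%, 18.2 to 24.04%) held an EGFP UMI. At week 4 these were 36 of 466 (7.73%, 5.47 to 10.5%) and 19 of 252 (7.54%, 4.60 to 11.5%). In CPM, members stood at 28.8 and 56.6 at week 2 and at 21.2 and 21.4 at week 4. Lymphocyte-marked nuclei, taken as a gauge of free RNA, stood at 19.0 CPM at week 4, with 4.69% ± 0.165 of nuclei positive at a median of 2407 and 2548 UMIs. Rod-marked nuclei stood at 23.8 and 41.5 CPM at week 2 and at 22.7 CPM on average at week 4. When every nucleus was thinned to 1000 UMIs, 1.54% of members and 2.04% of lymphocyte-marked nuclei held EGFP at week 4. The thinned share of members rested on 7 and 4 nuclei and lay below the gauge, while their CPM lay above it, so no order is read from them. Lymphocyte-marked nuclei at week 2 were too few for a gauge, with 2 and 8 nuclei.

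Within the members, EGFP was higher in the AII-like sub-cluster in each of the 4 AAV retinas. Sub-cluster 11, which was high in SAG and also carried NFIA (4315 CPM) and CALB2 (1385 CPM), counted among the other members, with EGFP in 4 of 22, 6 of 18, 0 of 4 and 1 of 8 nuclei. EGFP was found in 28.4% of AII-like nuclei and 7.29% of other members in the left eye of 7221, and in 43.0% and 14.0% in its right eye. At week 4 it was found in 18.6% and 4.67% in 7248 and in 20.3% and 2.73% in 7249. AII-like nuclei were deeper, so the level per UMI is the fairer measure. It was 44.8 CPM against 21.1 and 86.4 against 39.2 at week 2, and 28.8 against 17.2 and 49.4 against 5.95 at week 4. Single sub-clusters among the other members were not always lower. Sub-cluster 4 stood at 46.3 and 51.4 CPM at week 2 and at 15.4 and 0 CPM at week 4. Its shares thinned to 1000 UMIs were 4.26%, 7.41%, 4.35% and 0%. Sub-cluster 14 stood at 76.0, 25.6, 76.1 and 178 CPM, on 2 to 12 nuclei a retina. Among nuclei of 4000 to 8000 UMIs, 24.5% of AII-like and 13.9% of other members were positive in the left eye of 7221, 26.5% and 16.3% in its right eye, 17.3% and 7.59% in 7248, and 16.7% and 1.01% in 7249. These shares rest on 36 to 68 AII-like nuclei and 99 to 332 other members a retina. At 2000 to 4000 UMIs, with 6 to 18 AII-like nuclei a retina, the order was the same except in 7248, where 0 of 10 AII-like nuclei and 5 of 175 other members (2.86%) were positive. Thinned to 1000 UMIs the shares were 6.03% against 1.65%, 5.70% against 3.33%, 1.96% against 1.37% and 4.35% against 0.546%, on 2 to 11 positive AII-like nuclei per retina. With 3 AAV animals an exact test of this direction cannot reach the usual threshold, and none was run. In CPM the other members at week 4 lay below the 19.0 of the lymphocyte gauge. Gauge nuclei were shallower, at medians of 2407 and 2548 UMIs against 3568 and 4421. Other members held 25 EGFP UMIs in 364 nuclei of 7248 and 5 in 183 of 7249. Gauge nuclei held 46 in 811 and 47 in 765, so no order is read from the CPM.

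**Figure D4:**
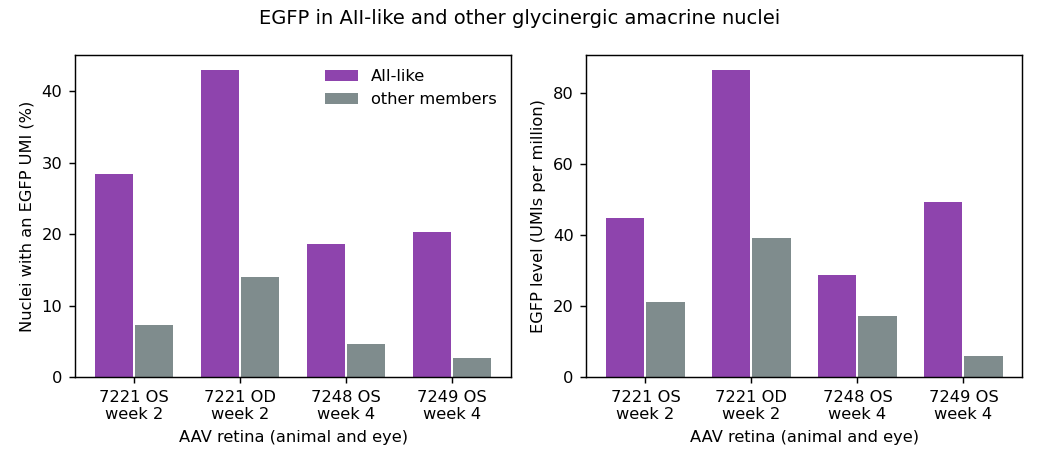
Share of nuclei with an EGFP UMI (left, %) and EGFP level (right, CPM) in AII-like and other members of the 4 AAV retinas, 1 bar per retina and class. AII-like nuclei were higher in each retina, from 18.6% to 43.0% against 2.73% to 14.0%.

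EGFP-positive members differed from EGFP-negative ones in sub-cluster. At week 4 their EGFP UMIs cannot be told apart, nucleus by nucleus, from free RNA. AII-like nuclei made up 50.2% of EGFP-positive and 17.5% of EGFP-negative members in animal 7221, 52.8% and 19.3% in 7248, and 73.7% and 23.6% in 7249. EGFP-positive members were also deeper, with a median of 7190 against 4430 UMIs in 7221, 6722 against 4096 in 7248 and 7573 against 4608 in 7249. With edgeR and the animal as a block, 330 of 12328 genes (2.68%) were higher and 448 (3.63%) lower in EGFP-positive members. Of the 330, 240 (72.7%) were also more than 2-fold higher in AII-like than in other members, as were 4.76% of all genes tested. Of the 448, 405 (90.4%) were more than 2-fold lower in AII-like members, as were 9.07% of all genes. The 10 genes with the smallest p were all lower in EGFP-positive members. PTPRT, a receptor phosphatase of neurons, had a log2 difference of -1.58 ± 0.13 and stood at 18.8 CPM in AII-like and 1782 in other members. CACNA2D3, a calcium channel subunit, had -1.63 ± 0.12 and stood at 71.4 and 4431 CPM. ZNF385D, PDE3B, TENM3, ZFPM2, HS6ST3, GRM8 and NTM had differences between -1.69 and -1.15 and were lower in AII-like members as well. The 778 calls were 234 without animal 7221, 379 without 7248, 365 without 7249 and 186 with DESeq2.

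Within a class the split gave few calls. Among AII-like nuclei 15 of 7113 genes (0.211%) were higher and 1 (0.0141%) lower in EGFP-positive nuclei, and 522 of the 778 genes could be tested there, of which 13 passed in the same direction. Most of the 15 belong to the mitochondrial genome, led by COX2 (log2 1.69 ± 0.15, edgeR adjusted p 2.8e-12), COX3 (1.81 ± 0.17) and COX1 (1.68 ± 0.17). DDX60, the RNA helicase, was the only interferon-stimulated gene among them (log2 1.19 ± 0.27, edgeR adjusted p 0.025). In the other sub-clusters without those high in SAG none of 7561 genes passed with edgeR, and 178 had an unadjusted p below 0.05. EGFP-positive nuclei there numbered only 19 and 69 in the eyes of 7221, 12 in 7248 and 3 in 7249. With so few nuclei the test could find little, and no absence of a difference is read from it. Of 45 interferon-stimulated genes tested over all members, 10 were higher in EGFP-positive members and none lower, with a median of 0.59 on the log2 scale. Among the 10 were NMI (1.54 ± 0.29), EPSTI1 (1.15 ± 0.22) and HERC5 (0.94 ± 0.19). NMI, EPSTI1 and HERC5 were also higher in AII-like than in other members, with log2 ratios of 1.39, 0.976 and 1.755. Within AII-like nuclei the median of 38 tested was 0.29. Among genes known from leukocytes, picked after their values were seen, CD163 (log2 4.73), FYB1 (3.08), FGD2 (2.60), MERTK (2.00) and PREX1 (1.80) were higher in EGFP-positive members and MR1 (-2.74) and POU2F2 (-1.16) lower, and their part in the result was not tested. The list summed to 3759 CPM in EGFP-positive and 3090 in EGFP-negative members of the left eye of 7221, and to 5128 and 3480 in its right eye. At week 4 it summed to 3056 and 2514 in 7248 and to 4401 and 3058 in 7249. The EGFP-negative members of each AAV retina lay above the 334 to 353 CPM of vehicle members. EGFP-negative means only that no EGFP UMI was captured, so these nuclei are not known to be free of vector. Per AAV retina, 0% to 6% of members with 1000 to 2000 UMIs and 21.6% to 48% of those with 8000 or more were positive. The part of transcripts from other cells in these sums was not tested.

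**Figure D5:**
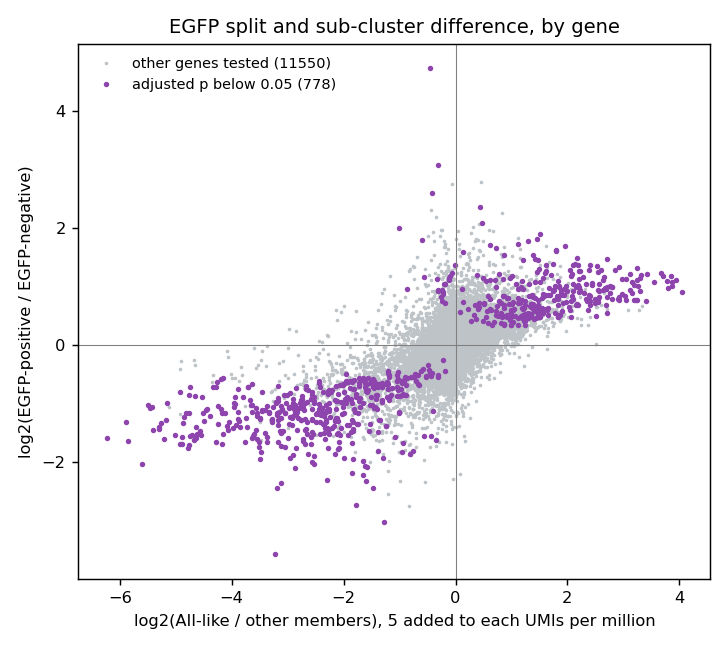
Log2 difference between EGFP-positive and EGFP-negative members (vertical axis) against the log2 ratio of AII-like to other members (horizontal axis), 1 point per gene, with the 778 genes past the threshold in purple. Genes lower with EGFP lay mostly to the left, with 405 of 448 more than 2-fold lower in AII-like members.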

How the data were processed

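Single-nucleus libraries of 8 retinas, 4 lanes each, were analysed. Per the labels, nuclei of flash-frozen retinas were sorted on DAPI and prepared with 10x GEM-X 3' chemistry. The deposited values are raw UMI counts per gene and barcode, which the authors made with Cell Ranger 8.0.0 on Sscrofa11.1, as the submitters' processing notes name them. Of 35683 genes, 18050 had no symbol, and a RefSeq table paired 80 of these. Retinas held between 121544835 and 173614051 UMIs.

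Members were found by the limits given above, and their counts were summed per retina and, at week 2 in fitted models, per animal. The members and gene lists were chosen with earlier results of these data known. Sums were tested with edgeR 4.0.16 (quasi-likelihood, TMM, R 4.3.3) at an adjusted p of 0.05, with DESeq2 1.42.0 as an alternative. P-values measure only the spread between these samples. Members were clustered with the Leiden method (leidenalg 0.10.2, 1500 genes, 15 components, 20 neighbours, resolution 0.5, 349 treatment-moved and gate genes kept out). Intervals are 95%, exact, and cover counting error only. A floor of 3 counts stands for 0.

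Named genes were the 12 largest changes in each direction at week 4 with a symbol, no overlap and 5 CPM or more in a group, the 4 most abundant called genes of each list, uncalled genes of the glycine and transcription factor lists, the 10 smallest p of each other test and the 8 largest folds each way at week 2. Genes named beyond these were chosen for their role after their values were seen. Some genes that the rule names are not reported here. In simulated counts only well-counted genes were changed, 99 or 100 per fold, so the recovery says nothing of sparse genes. The week 4 test recovered 57% of 2-fold and 97% of 4-fold changes among 12780 genes, with 7 unchanged genes called. The test between classes recovered 37% and 82% among 18070, with 4 unchanged genes called. That between weeks recovered 26% and 77% among 14430, with 5, and the EGFP split 65% and 93.9% among 12220, with 3.

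Alternatives were size factors, filters on counts and nuclei, each replicate left out, and, chosen after seeing the data, subsets of sub-clusters.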

Additional observations from a re-analysis of the deposited data

Results flagged for a closer look

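The AAV response differed between glycinergic and GABAergic amacrine nuclei for 47 genes by an interaction test in edgeR. The 10 with the smallest p, as log2 differences of glycinergic minus GABAergic response, were GALNT18 (-1.19), TENM3 (0.875), SLC4A5 (-2.10), SLIT2 (1.04), GRIA1 (-0.941), PCDH7 (-0.752), DRD2 (-1.43), GNA14 (-1.26), MEGF10 (-1.28) and PRKG1 (-0.686). PCDH7 encodes a protocadherin, MEGF10 a receptor for engulfment and PRKG1 a kinase activated by cyclic GMP.

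The response differed between week 4 and week 2 for 63 genes by the same kind of test, with 1 animal a group at week 2, assumed to vary like the week 4 animals, so that a difference particular to those animals cannot be told apart from the week. The 10 with the smallest p, as log2 differences of week 4 minus week 2, were TOPAZ1 (1.64), STAC2 (-1.32), COL21A1 (-2.41), CACHD1 (-1.56), TSEN15 (-1.82), SLIT2 (1.72), NDRG4 (-1.47), RGR (-8.26), MORC1 (-4.11) and TF (-4.10). RGR had no UMI in AAV members at week 4, so its fitted value is no bound. Each of the 4 groups carries its own batch name, and batch and group cannot be told apart.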

How the results depend on the processing

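The count of interferon-stimulated genes higher at week 4 stayed within 1.5 times of 38 under all 16 alternatives (28 to 43), and the share difference kept its sign in all 10 (-0.333 to -0.969). Other counts moved. With no filter on low counts, 291 genes were higher and 164 lower at week 4, 160 differed between glycinergic and GABAergic responses and 156 between weeks. With DESeq2 these were 33 lower, 2 and 3, and 186 for the EGFP split. With 3 or more SLC6A9 UMIs, 98 were higher, 30 lower, 470 differed by EGFP and 39 between weeks. Without GAD1 or GAD2 UMIs 27 differed between weeks, and without the 10% deepest nuclei 36, with 290 by EGFP. With all 6 animals 31 were lower. In AII-like nuclei 85 were higher, 33 lower and 16 differed by EGFP, and in the other sub-clusters 89, 29 and 0. With 2 EGFP UMIs 267 differed. Leaving out a replicate gave 89 to 305 higher, 35 to 184 lower, 48 to 248 between classes, 14 to 299 between weeks 365 to 379 by EGFP, and 234 by EGFP without the week 2 animal. At week 2, left eyes alone gave 1067 higher and 637 lower, right eyes 895 and 674, and a minimum of 100 UMIs 165 and 53. The EGFP share at week 4 (7.63%) was 7.03% after the mitochondrial filter, 8.0% from 2000 UMIs, 5.98% without the 10% deepest nuclei, 11.7% with 3 SLC6A9 UMIs, 8.30% with no GAD UMI, 2.05% at 2 EGFP UMIs, 1.54% thinned and 8.09% without sub-clusters high in SAG. The cause of these moves was not tested. No paired analysis was possible because no AAV and vehicle retina came from the same animal and replicate numbers only name samples. The EGFP split had the animal, and the tests between classes of nuclei the retina, as a term.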
